A study of Mus musculus with 5 samples.

Results

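The promoters of cell cycle and DNA repair genes were described by the chromatin contacts they made in the supporting cells of the mouse gonad. A promoter was included when its bait, the captured fragment or bin that carries it, was named for a gene of the cyclin, Cdk, Cdkn, Cdc, E2f, Mcm, Orc, Anapc, Aurk, Plk, Bub, Cenp, Kif, Brca, Rad, Fanc, Xrcc or Ercc families, and Cdkn1c was left out. With single restriction fragments as baits (the original baits), 85 of 7674 baits on chromosomes 1 to 9 were included, which named 65 genes and held 357 of 28991 listed cis contacts. With bins of about 5 kb as baits (the extended baits, median length 5323 bp), 135 of 11063 baits were included, which named 105 genes and held 641 of 50644 contacts. Either set of baits together named 106 genes. The choice rests on names alone, so it also brings in relatives whose work lies elsewhere, such as Cdc42bpa, a kinase that acts on the cytoskeleton downstream of Cdc42, and Kif1a, a motor of neuronal transport.

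The study used capture Hi-C, in which crosslinked chromatin is cut with DpnII and ligated, and the ligation products of chosen promoters are enriched. Sertoli cells, the supporting cells of the testis, were sorted at E13.5, soon after the gonad takes its sex, by the Sox9IRES-GFP reporter and gave 3 libraries. Pre-granulosa cells, their counterparts in the ovary, were sorted at the same age by the Enh8-mCherry reporter and gave 2 libraries, and each library of either type came from about 100000 sorted cells. Each cell type has 1 column of CHiCAGO scores, where a score rises as the read pairs between a bait and another bin exceed the number predicted from distance. The libraries behind a column cannot be separated, so no value below has a replicate error and no p-value is given. No transcript was measured, so the sorted cells could not be set against marker genes. Depth is unknown, and a difference in score can come from the contacts or from the depth and number of the libraries, which cannot be told apart. A contact was called at a score of at least 5, and only contacts that reached this in at least 1 of the cell types were listed. The original and the extended baits come from the same libraries and are not independent of each other.

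A dividing cell passes from growth into DNA synthesis when D-type and E-type cyclins activate their kinases and release E2F factors, while inhibitors of the Cdkn2 and Cdkn1 groups hold the kinases back. Licensing by the ORC and MCM complexes prepares replication origins, the anaphase-promoting complex and the mitotic kinases drive chromosome separation, and the repair genes mend breaks, crosslinks and damaged bases. Promoters of this kind commonly carry E2F sites, CCAAT boxes bound by NF-Y, and the cell cycle genes homology region (CHR) bound by the DREAM and MuvB complexes. In the fetal gonad, supporting cells of the ovary leave the cell cycle early, while Sertoli cells go on dividing.

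The promoter sequences below show these elements for genes of DNA synthesis (Mcm5, Mcm6, Cdc25a) and of mitosis (Cdc20), followed by the promoters of the Cdkn2a and Cdkn2b inhibitor locus whose contacts with each other are described further on. Each is the 250 bases before a transcription start, 5′ to 3′ on the gene's strand, from RefSeq on GRCm38.p6. Capitals mark matches on either strand. The CHR was searched as TTTGAA and the box for NF-Y as CCAAT. The E2F core was searched as TTCCCGC with its variant TTCGCGC, and also as TTGCCGC with its variant TTGGCGC, and matches can overlap. Mcm5 is at chr8:75109259-75109508 on the plus strand, Mcm6 at chr1:128359706-128359955 on the minus strand, Cdc25a at chr9:109875329-109875578 on the plus strand and Cdc20 at chr4:118437344-118437593 on the minus strand. The INK4a promoter of Cdkn2a is at chr4:89282193-89282442, its ARF promoter at chr4:89294620-89294869 and the Cdkn2b promoter at chr4:89311033-89311282, all on the minus strand.
Mcm5: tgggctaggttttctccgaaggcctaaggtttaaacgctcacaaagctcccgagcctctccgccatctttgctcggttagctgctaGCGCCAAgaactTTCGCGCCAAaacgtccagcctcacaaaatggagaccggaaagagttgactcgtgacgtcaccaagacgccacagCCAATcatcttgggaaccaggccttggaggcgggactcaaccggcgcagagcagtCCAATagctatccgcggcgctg
Mcm6: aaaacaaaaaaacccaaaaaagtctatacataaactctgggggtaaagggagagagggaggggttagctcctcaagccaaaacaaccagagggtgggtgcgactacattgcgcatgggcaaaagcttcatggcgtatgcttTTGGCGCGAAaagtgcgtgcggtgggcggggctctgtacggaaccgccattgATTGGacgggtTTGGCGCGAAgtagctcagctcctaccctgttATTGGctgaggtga
Cdc25a: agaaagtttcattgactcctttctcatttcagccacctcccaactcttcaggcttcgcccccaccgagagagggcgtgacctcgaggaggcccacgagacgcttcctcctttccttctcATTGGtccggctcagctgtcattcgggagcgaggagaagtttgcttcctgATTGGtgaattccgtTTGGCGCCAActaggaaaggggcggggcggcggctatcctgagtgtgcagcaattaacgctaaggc
Cdc20: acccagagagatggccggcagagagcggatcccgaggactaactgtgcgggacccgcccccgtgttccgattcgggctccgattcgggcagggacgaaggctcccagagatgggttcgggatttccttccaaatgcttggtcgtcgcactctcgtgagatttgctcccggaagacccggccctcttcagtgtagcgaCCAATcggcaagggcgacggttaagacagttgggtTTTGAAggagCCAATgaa
Cdkn2a, INK4a start: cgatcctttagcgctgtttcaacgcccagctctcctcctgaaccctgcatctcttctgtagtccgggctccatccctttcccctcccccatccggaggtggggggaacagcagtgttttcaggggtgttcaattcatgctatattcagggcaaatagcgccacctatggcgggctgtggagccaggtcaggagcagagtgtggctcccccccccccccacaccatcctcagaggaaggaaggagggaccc
Cdkn2a, ARF start: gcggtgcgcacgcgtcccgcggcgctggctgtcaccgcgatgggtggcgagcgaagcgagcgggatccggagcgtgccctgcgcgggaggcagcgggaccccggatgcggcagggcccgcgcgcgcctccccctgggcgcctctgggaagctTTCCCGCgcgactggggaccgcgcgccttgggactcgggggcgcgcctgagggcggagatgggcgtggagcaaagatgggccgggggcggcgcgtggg
Cdkn2b: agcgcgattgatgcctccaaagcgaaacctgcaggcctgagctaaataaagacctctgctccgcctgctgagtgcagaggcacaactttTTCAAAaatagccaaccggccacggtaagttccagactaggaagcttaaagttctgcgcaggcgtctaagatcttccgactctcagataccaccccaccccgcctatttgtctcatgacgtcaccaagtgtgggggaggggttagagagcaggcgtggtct

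The Mcm5 and Mcm6 promoters hold 2 CCAAT matches each, with 3 and 4 E2F core matches, and Cdc25a holds 2 of each kind. The Cdc20 promoter holds 2 CCAAT matches and 1 CHR match. The INK4a promoter has none of these letters in its window, the ARF promoter has 1 E2F core match and the Cdkn2b promoter has 1 CHR match. RefSeq promoters matched 91 of the 106 genes, with 107 promoters in all, of which 103 had their start inside a bait of these genes. The E2F core was present in 24 of the 107 (22.4%, Wilson 95% interval 15.6 to 31.2), against 8.06% of 18612 promoters of chromosomes 1 to 9 and 10.99% of the 9030 of these promoters that start in a listed extended bait. CCAAT was present in 50.5% (41.1 to 59.8), against 33.7% and 34.1%. The CHR letters were present in 18.7% (12.4 to 27.1), against 15.7% and 12.9%, and both of these lie inside the interval. Of the licensing genes, 10 of 11 promoters held CCAAT and 5 of 11 the E2F core. In the DNA repair genes the E2F core was found in 7 of 18 promoters, and in the anaphase-promoting complex in 0 of 7. A match is a run of letters and does not show binding.

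Sertoli calls outnumbered pre-granulosa calls at these promoters, as they did at baits in general. With the original baits, 275 of the 357 contacts were called in Sertoli cells (80.2% of all listed contacts were) and 162 in pre-granulosa cells (41.5% of all). There were 1.70 Sertoli calls for each pre-granulosa call (95% interval 1.40 to 2.06), and 1.93 over all baits. Both cell types called 80 contacts (21.7% of all listed contacts were shared), Sertoli cells alone 195 (58.5% of all) and pre-granulosa cells alone 82 (19.8% of all). Shared contacts made up 29.1% of what Sertoli cells called (24.0 to 34.7) and 49.4% of what pre-granulosa cells called (41.8 to 57.0), against 27.0% and 52.3% over all baits. These shares lie near those of all baits, and the intervals cover counting error only and are too narrow, because neighbouring bins share signal.

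The extended baits gave the same order with a smaller gap. Sertoli cells called 516 contacts (78.7% of all listed contacts), pre-granulosa cells 375 (55.9%), both 250 (34.6%), Sertoli cells alone 266 (44.1%) and pre-granulosa cells alone 125 (21.3%). The ratio was 1.38 (1.20 to 1.57) against 1.41 over all baits. Shared contacts were 48.4% of Sertoli calls (44.2 to 52.8), and for pre-granulosa cells 66.7% (61.7 to 71.2), against 43.9% and 61.8%.

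Part of the contacts called in 1 cell type alone scored at least 3 in the other. Of the 195 contacts called in Sertoli cells alone, 130 (66.7%) had a pre-granulosa score under 3 and 42 (21.5%) a score under 1. Of the 82 called in pre-granulosa cells alone, 36 (43.9%) had a Sertoli score under 3 and 4 (4.88%) a score under 1. Over all baits these shares were 66.1% and 23.1% for Sertoli cells, and 51.7% and 9.71% for pre-granulosa cells. The scatter of scores shows this spread for the extended baits.

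**Figure D1:**
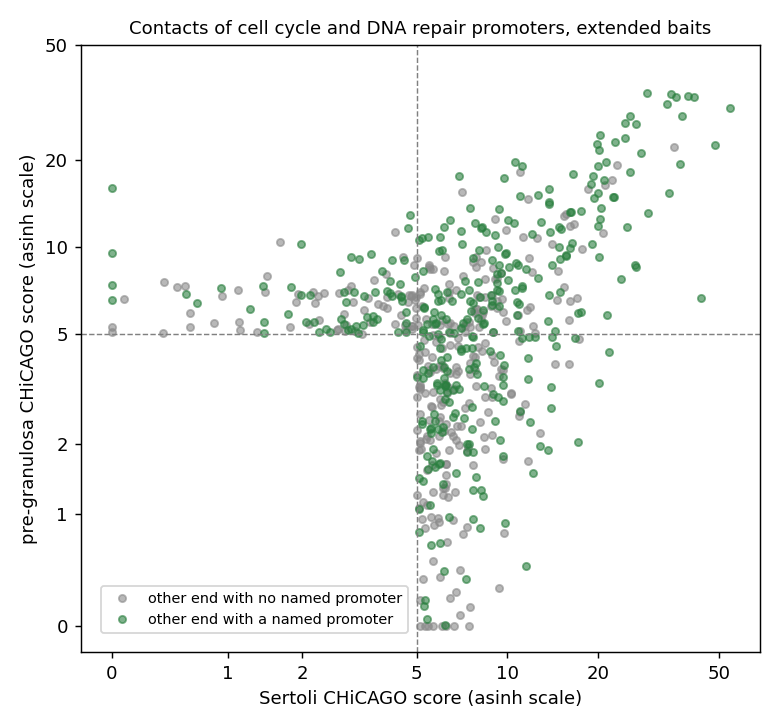
CHiCAGO scores of the 641 listed contacts of cell cycle and DNA repair promoters with extended baits, Sertoli cells on the x axis and pre-granulosa cells on the y axis, both on an asinh scale. Dashed lines mark a score of 5; the lower left is empty because such contacts are not listed, 250 points lie above both lines, and the highest scores are 54.2 in Sertoli cells, against 34.0 in pre-granulosa cells.

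Most promoters had few contacts. With the original baits, 31 of the 85 had 1 called contact. The median was 2, the same as over all baits, and the highest number was 23, against 35 over all baits. More Sertoli calls were seen at 57 baits (65.2% of all baits), more pre-granulosa calls at 17 (22.0% of all) and equal numbers at 11 (12.7% of all). No pre-granulosa call was present at 27 of these promoters (31.8%, against 33.7% of all baits) and no Sertoli call at 11 (12.9%, against 14.3%), and these shares lie near those of all baits. With the extended baits the numbers were 73 (53.6% of all) and 35 (26.4%), and the others had equal numbers.

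**Figure D2:**
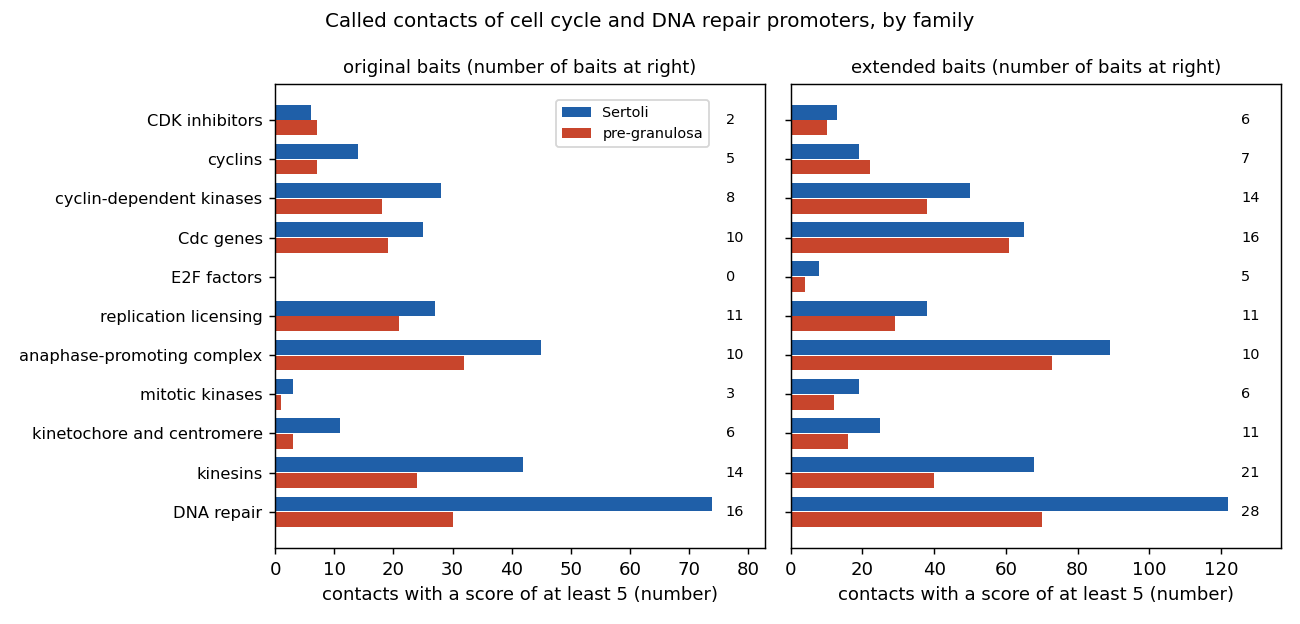
Number of contacts with a score of at least 5 in Sertoli cells (blue) and pre-granulosa cells (red) for each gene family, with the number of baits at the right of each panel. DNA repair promoters have the largest difference in number, with 74 against 30 calls for the original baits and 122 against 70 for the extended baits, and the CDK inhibitors and cyclins change order between the panels.

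The order of the families depends on the threshold each cell type was given. When the Sertoli threshold was raised until both cell types had equal numbers of calls in the whole table, 3 families had more Sertoli calls, against 9 at the common threshold. The kinetochore and centromere genes had 2 Sertoli calls for each pre-granulosa call, from 6 and 3 calls, and the cyclins had 1.29. DNA repair had 1.77, against 2.47 at the common threshold, and 1.06 without Rad9b and Fanca, left out after the values were seen. At the other end the CDK inhibitors had 0.429, from 3 and 7 calls, the Cdc genes 0.474 and the licensing genes 0.571. The family counts below stand beside the ratios over all baits at the common threshold. These were 1.93 with original baits and 1.41 with extended baits.

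The CDK inhibitors had nearly equal calls at the common threshold. Cdkn2a and Cdkn2c, the members with original baits, had 6 Sertoli and 7 pre-granulosa calls, and with Cdkn1b, Cdkn2b and Cdkn2d added the extended baits had 13 and 10. Cdkn2a encodes INK4a, which blocks the kinases of D-type cyclins, and ARF, which stabilises p53, from separate first exons. Its INK4a bait (Cdkn2a-201, chr4:89281465-89282437 on mm10) met the bin 5.63 kb toward lower coordinates, inside Cdkn2a, with scores of 13.2 in both cell types. The bin 9.54 kb toward higher coordinates was called in both as well, at 7.34 in Sertoli and 7.22 in pre-granulosa cells.

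The contacts from Cdkn2a into Cdkn2b, the neighbouring INK4b inhibitor gene, were called in pre-granulosa cells only. The bins over Cdkn2b at 22.1 and 26.7 kb scored 5.98 and 5.71 in pre-granulosa cells, against 3.88 and 3.02 in Sertoli cells. The bin at 16.1 kb, outside protein-coding genes, went the other way at 3.85 and 7.43. With the extended baits, Cdkn2a-201 met the Cdkn2b promoter bin 27.3 kb away at 5.71 in pre-granulosa and 3.41 in Sertoli cells. Seen from the Cdkn2b bait, the same pair scored 13.6 and 9.40 and so was called in both cell types. The ARF bait met the INK4a bin at 14.4 in pre-granulosa and 13.8 in Sertoli cells, and the reverse view gave 11.4 and 7.06. These 4 extended views each had a higher pre-granulosa score, but they show the same pairs from both ends and are not independent. In 1 of the 4 the Sertoli score fell under 5. That view was listed through pre-granulosa cells alone, which fixes its direction. The single far contact of Cdkn2a-201, 136 kb away over Mtap, scored 5.27 in Sertoli cells, with 0 listed for pre-granulosa cells.

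Cdkn2c, which encodes INK4c, had 2 calls in each cell type and they did not coincide (21.7% of all listed contacts were shared). Its Sertoli calls lay 162 and 172 kb toward lower coordinates at 6.27 and 6.20, and its pre-granulosa calls lay 3.95 and 9.80 kb away at 5.10 and 5.48. In the extended view, the bin 12.0 kb away was called in both at 6.79 and 7.13. Cdkn1b, the p27 inhibitor, had 2 Sertoli calls and 1 pre-granulosa call with its extended bait. The contact 21.2 kb away was called in both cell types. The Apold1 promoter bin 60.9 kb away scored 11.2 in Sertoli and 4.84 in pre-granulosa cells.

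The cyclins had 14 Sertoli and 7 pre-granulosa calls with original baits, and 19 and 22 with extended baits. Ccnd2 encodes cyclin D2, and its bait Ccnd2-206 (chr6:127151429-127152337) had 5 listed contacts, all toward higher coordinates and all outside protein-coding genes. The bins at 159, 176 and 181 kb were called in pre-granulosa cells only, at 8.88, 5.68 and 5.71, with Sertoli scores of 1.72, 2.98 and 4.38. The bins at 203 and 208 kb were called in Sertoli cells only, at 7.61 and 10.5, with pre-granulosa scores of 0.42 and 3.56. No bin was shared, where 21.7% of all listed contacts with original baits were. With this bait the pre-granulosa bins lay nearer to the promoter than the Sertoli bins. The extended bait had 12 contacts, starting at 10.6 kb, and its bins at the nearer places scored 10.5, 11.3 and 9.27 in pre-granulosa cells, against 1.65, 4.24 and 4.49 in Sertoli cells. The farther bins scored 7.72 and 12.4 in Sertoli cells, against 1.64 and 5.03 in pre-granulosa cells, so the last was then called in both. Beyond these the order did not hold: the bin at 222 kb scored 6.10 in Sertoli cells and the bin at 227 kb scored 5.09 in pre-granulosa cells, each with 0 listed for the other cell type. The extended bait also met the bins with the Parp11 promoters, 296 and 302 kb away, at 5.49 and 7.68 in Sertoli cells, against 4.91 and 4.88 in pre-granulosa cells.

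Ccnd1, the cyclin D1 gene, was added after its values were seen. It had 5 calls in Sertoli and 1 in pre-granulosa cells, and 4 of these bins lay over Tpcn2, a channel gene, between 278 and 309 kb away. They scored 8.36, 6.30, 10.7 and 6.32 in Sertoli cells, against 2.31, 4.36, 6.61 and 2.03 in pre-granulosa cells. The extended bait had 3 Sertoli and 2 pre-granulosa calls, 2 of them shared, and met the Smim38 promoter bin, 270 kb away, almost equally at 13.7 and 14.1. Ccng2, an atypical cyclin linked to cell cycle arrest, had contacts 52.3 to 84.5 kb toward lower coordinates over Ccni and 2010109A12Rik. One of its baits had 5 Sertoli and 2 pre-granulosa calls and Ccng2-202 had 1 of each. The extended bait had 7 and 6, and its strongest contact was the Ccni promoter bin at 37.6 in Sertoli and 28.4 in pre-granulosa cells.

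The cyclins of DNA synthesis had contacts with the extended baits only. Ccna2, which encodes cyclin A2, had 3 pre-granulosa calls over Exosc9 between 11.2 and 21.5 kb away, at 7.02, 5.31 and 5.37, and its Sertoli scores there were 2.84, 1.81 and 3.29. Ccne2 met 3 bins over Ints8 in pre-granulosa cells at 6.64, 6.76 and 6.44, with Sertoli scores of 0.09, 2.29 and 2.87. It met another bin over Ints8 in Sertoli cells at 5.10 against 1.07. Ccne1 had 1 contact, with the 1600014C10Rik promoter bin 76.3 kb away, at 6.13 in Sertoli and 2.31 in pre-granulosa cells. Ccna2 and Ccne2 thus had more pre-granulosa calls and Ccne1 more Sertoli calls, each resting on 1 to 5 contacts.

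**Figure D3:**
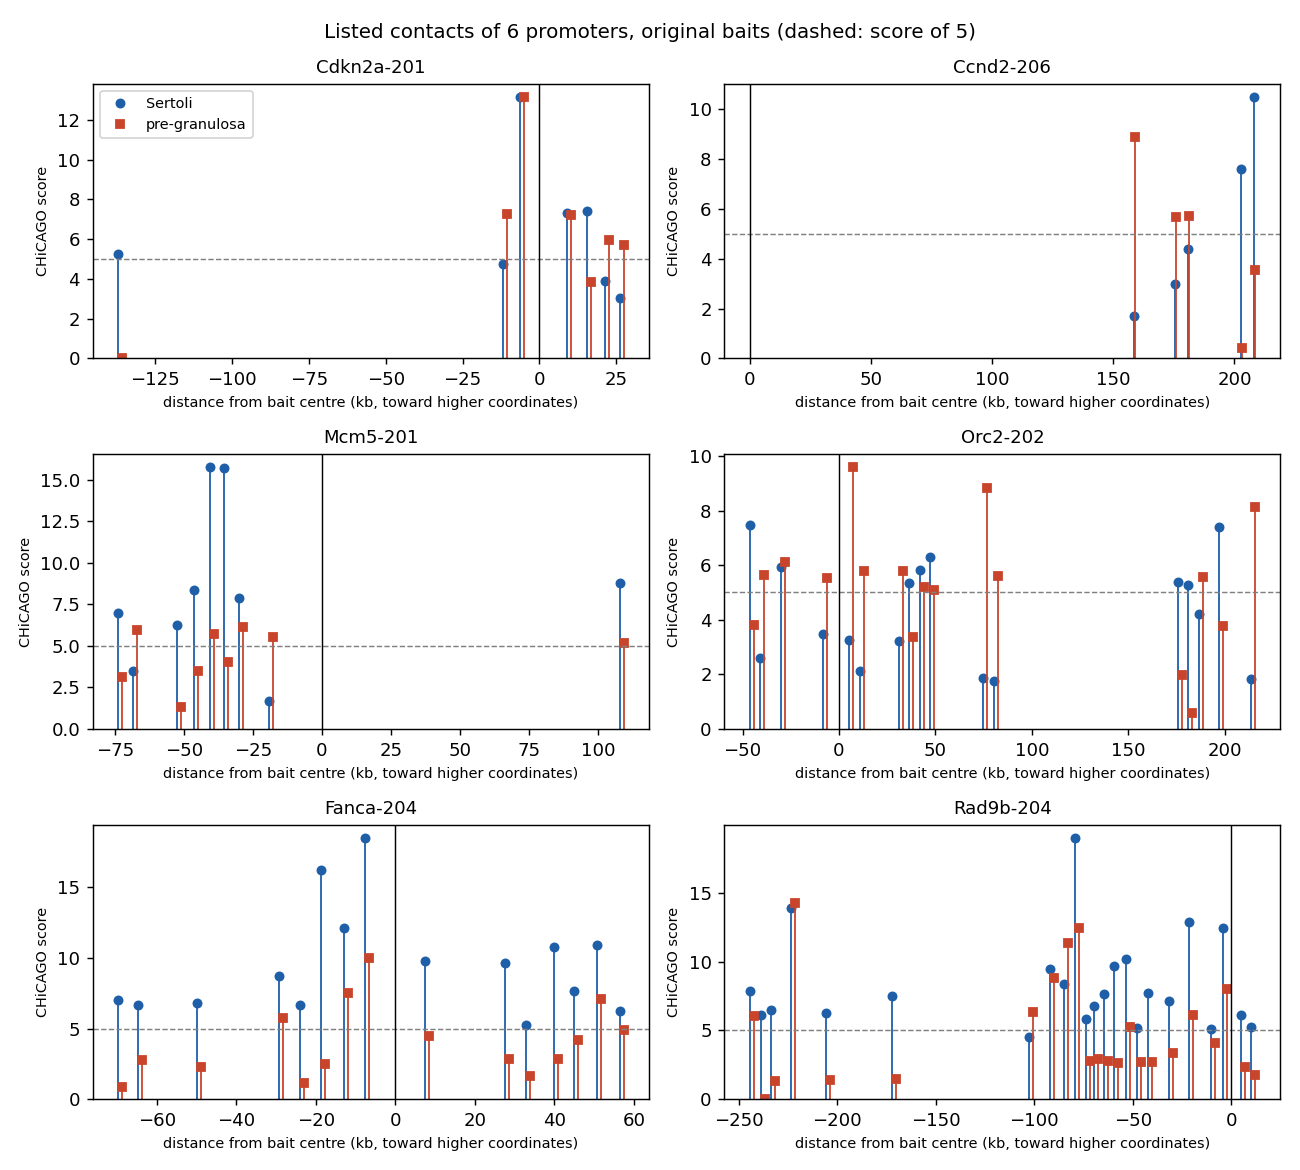
Listed contacts of 6 promoters with original baits, with the CHiCAGO score on the y axis (Sertoli blue circles, pre-granulosa red squares) against the distance from the bait in kb. For Ccnd2-206 the pre-granulosa calls lie at 159 to 181 kb and the Sertoli calls at 203 and 208 kb, and for Fanca-204 4 bins pass the dashed line in both cell types, while the other 11 were listed through Sertoli cells alone.

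The cyclin-dependent kinases had 28 Sertoli and 18 pre-granulosa calls with original baits, and 50 and 38 with extended baits. The ratios were 1.56 and 1.32, against 1.93 and 1.41 over all baits. Most of the calls with original baits came from Cdk15-202, the promoter of a little-studied kinase, with 16 and 11 calls. Its 5 farthest contacts, at 355 to 376 kb over Gm973, were also the farthest of all the promoters described here with original baits. They scored 10.2, 1.83, 8.69, 10.6 and 6.90 in Sertoli cells, against 12.4, 6.01, 6.18, 6.60 and 2.64 in pre-granulosa cells. Cdk6, a partner of D-type cyclins, met a bin within its own gene 171 kb away at 7.07 in Sertoli and 3.22 in pre-granulosa cells. Its extended bait also met the Fam133b promoter bin 200 kb away at 10.8 and 5.84. Cdk14-203 met a bin over Pttg1ip2 210 kb away at 5.31 in pre-granulosa and 0.05 in Sertoli cells, but the extended bait gave 7.20 and 5.76 for it.

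The Cdc genes had 25 Sertoli and 19 pre-granulosa calls, and 65 and 61 with extended baits. Without Cdc42 and its relatives, 3 original baits remained, with 0.5 Sertoli calls per pre-granulosa call. Those of Cdc73 and Cdc25b had 1 Sertoli call each and no pre-granulosa call, so every pre-granulosa call among them came from Cdc14a. Cdc14a, a phosphatase that opposes mitotic kinases, had 1 Sertoli and 6 pre-granulosa calls at Cdc14a-208 (chr3:116428557-116428831). Its bins at 61.5 and 72.3 kb over Rtca scored 9.69 and 2.96 in Sertoli cells, against 5.99 and 8.12 in pre-granulosa cells. The other 4 called bins had Sertoli scores of 3.45 to 4.91, close to the threshold. The extended bait had 3 and 4.

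Cdc25a, the phosphatase that activates the kinases at the start of DNA synthesis, had contacts with extended baits alone. Its 3 baits had 0, 2 and 1 Sertoli calls, and 2, 2 and 4 pre-granulosa calls. The bins of Cdc25a-201 and Cdc25a-207, 10.7 kb apart within the gene, met at 6.997 in pre-granulosa and 3.07 in Sertoli cells, and at 5.52 and 1.43 when seen from the other bait. Cdc25a-207 met the Map4 promoter bins 185 and 195 kb away at 16.6 and 11.6 in pre-granulosa cells, against 19.0 and 4.66 in Sertoli cells. The bin with promoters of Dhx30 and Smarcc1, 238 kb from Cdc25a-204, scored 16.0 in pre-granulosa cells and was listed at 0 in Sertoli cells, and from Cdc25a-207 it scored 9.55 and 0. All 12 contacts listed for that bin from any bait were at 0 in Sertoli cells, so the zero is shared by the whole bin and no loss of contact can be read from it.

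Cdc25b, its relative that acts before mitosis, met the Ap5s1 promoter bin 21.9 kb away at 17.4 in pre-granulosa and 9.77 in Sertoli cells, both called. Cdc20, the activator of the anaphase-promoting complex whose promoter is shown above, had 2 calls in each cell type. It met the Tmem125 promoter bin 108 kb away at 17.6 in Sertoli and 5.97 in pre-granulosa cells, and the 2610528J11Rik promoter bin at 2.99 and 9.25. These contacts of one promoter leaned in opposite directions.

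The E2F factors had no original bait with a contact, and 5 extended baits (E2f1, E2f2, E2f4, E2f5 and E2f8) with 8 Sertoli and 4 pre-granulosa calls. E2f1, an activator of genes for DNA synthesis, met the Pxmp4 promoter bin 31.2 kb away at 48.5 in Sertoli and 22.6 in pre-granulosa cells. It met the Chmp4b promoter bin 87.9 kb away at 9.52 in pre-granulosa and 3.51 in Sertoli cells. E2f5, a repressor of the family, was called in Sertoli cells alone. Its contact with a Lrrcc1 promoter bin 33.1 kb away scored 17.1 in Sertoli and 2.02 in pre-granulosa cells.

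The licensing family of Mcm2, Mcm3, Mcm5, Mcm7, Mcm8, Orc1, Orc2 and Orc6 had 27 Sertoli and 21 pre-granulosa calls with original baits. It was formed by symbol, so it also takes in Mcm8, a helicase of recombination. With Mcm6 added, the extended baits had 38 and 29. Orc2, a subunit of the origin recognition complex, had the largest number at Orc2-202 (chr1:58501284-58501533), with 8 Sertoli and 12 pre-granulosa calls of which 3 coincided. The bin 6.46 kb away inside Orc2 scored 9.59 in pre-granulosa and 3.25 in Sertoli cells. The bins 75.7 kb away over Fam126b and 215 kb away over Cflar scored 8.81 and 8.13 in pre-granulosa cells, against 1.87 and 1.84 in Sertoli cells. Another Orc2 bait met the bin of the Flacc1 promoter 191 kb away at 7.12 in Sertoli and 0.45 in pre-granulosa cells. The extended view of that contact gave 20.2 and 3.35 from that bait, and 20.5 and 13.6 from Orc2-202, so the pre-granulosa score differed between 2 baits of one gene.

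Mcm5, a subunit of the replicative helicase whose E2F-rich promoter is shown above, was added after its values were seen. Its bait (chr8:75109208-75109845) had 7 Sertoli and 5 pre-granulosa calls, 8 of its 9 contacts lying 18.6 to 73.1 kb toward lower coordinates, most over Tom1. The strongest, at 39.7 and 34.6 kb, scored 15.8 and 15.7 in Sertoli cells, against 5.75 and 4.02 in pre-granulosa cells. The bin at 18.6 kb scored 5.56 in pre-granulosa and 1.67 in Sertoli cells. With the extended bait the bins at 37.4 and 32.3 kb scored 16.0 in Sertoli cells, against 5.595 and 3.91 in pre-granulosa cells, while the Hmox1 promoter bin scored 9.08 in pre-granulosa and 3.19 in Sertoli cells.

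The other MCM genes made few contacts. Mcm2 and Mcm3 met bins inside their own genes 4.30 and 10.02 kb away at 5.61 and 5.66 in Sertoli cells, against 2.42 and 1.64 in pre-granulosa cells. With the extended bait, Mcm2 met the Tpra1 promoter bin 10.5 kb away in both cell types at 14.8 and 9.998. Mcm6 met the Cxcr4 promoter bin 232 kb away at 5.85 in Sertoli and 3.29 in pre-granulosa cells. The extended bait shared by Mcm7 and Ap4m1 met the Taf6 and Cnpy4 promoter bin 11.2 kb away at 34.0 in pre-granulosa and 28.9 in Sertoli cells, the highest pre-granulosa score of any contact described here. Orc1 met a bin at 31.2 kb inside its own gene at 5.92 in Sertoli and 4.78 in pre-granulosa cells.

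The anaphase-promoting complex, a ubiquitin ligase, had 45 Sertoli and 32 pre-granulosa calls at 10 baits of Anapc1, Anapc2, Anapc4, Anapc5, Anapc13 and Anapc15, and 89 and 73 with extended baits. Anapc2 encodes its cullin subunit. Its busiest bait (chr2:25273164-25273787) had 14 and 11 calls, and its contact 8.81 kb away inside Anapc2 scored 16.3 in Sertoli and 14.2 in pre-granulosa cells. With the extended bait, the bin of the Slc34a3 and Rnf224 promoters 36.9 kb away scored 43.7 in Sertoli and 6.68 in pre-granulosa cells, while the bin of Tmem210 and Lrrc26 16.9 kb away scored 33.6 and 31.2. Anapc15-214 met a bin over Folr1 and Folr2 5.40 kb away at 21.8 in Sertoli and 15.2 in pre-granulosa cells, the highest scores with original baits in both. Anapc4-211 met a bin over Sel1l3 274 kb away at 9.20 in Sertoli and 0.35 in pre-granulosa cells, and the extended bait gave 7.55 and 0.15.

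The mitotic kinases and Aurkaip1, a gene brought in by its name that encodes a protein interacting with Aurora A, had few contacts, with 3 Sertoli calls and 1 pre-granulosa call for the original baits, and 19 and 12 for the extended baits. The pre-granulosa call with original baits belonged to Aurkaip1, whose extended bait had 4 Sertoli and 5 pre-granulosa calls. Aurka, the Aurora A kinase, had 2 Sertoli calls and no pre-granulosa call, and its extended bait, shared with Cstf1, met the Rtf2 promoter bin 70.5 kb away at 17.2 and 5.91. Plk1, the mitotic Polo-like kinase, met a promoter bin of Palb2, a repair gene that partners Brca2, 27.0 kb away at 20.1 in Sertoli and 9.25 in pre-granulosa cells. Plk1 also met the Cacng3 promoter bin 513 kb away at 7.33 and 0.38. Plk4, the kinase of centriole duplication, leaned the other way at the Hspa4l promoter bin, with 12.4 in pre-granulosa and 6.48 in Sertoli cells. Plk3, a stress-responsive relative added after its values were seen, met the bin of Btbd19 and Tctex1d4 10.6 kb away at 54.2 in Sertoli cells, the highest score of any contact described here, and at 30.3 in pre-granulosa cells.

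The kinetochore and centromere genes had 11 Sertoli and 3 pre-granulosa calls with original baits and no shared contact (21.7% of all listed contacts were shared), and 25 and 16 with 8 shared for the extended baits (34.6% of all). The ratios of calls were 3.67 and 1.56, against 1.93 and 1.41 over all baits, and they rest on few contacts. Of the 11 extended baits, 4 had more Sertoli calls, 3 more pre-granulosa calls and 4 equal numbers. Cenpt, which links centromeric chromatin to the outer kinetochore, had 5 Sertoli calls and no pre-granulosa call, with scores of 5.62 to 9.95 and 1.34 to 4.07. Its extended bait had 8 Sertoli calls and no pre-granulosa call. Bub1b, which encodes the spindle checkpoint protein BubR1, leaned to pre-granulosa cells, meeting the Srp14 promoter bin 120 kb away at 12.1 against 7.83 and the Bmf promoter bin at 8.28 against 3.83. Cenpa, the histone H3 variant of centromeres, met promoter bins of Slc35f6 at 5.19 and 6.55 in pre-granulosa cells, against 2.45 and 6.01 in Sertoli cells. Cenpf, a kinetochore protein of mitosis, had the farthest contacts with extended baits: its baits Cenpf-202 and Cenpf-204 met the same Kctd3 promoter bin 670 and 709 kb away, at 12.9 and 2.53 in Sertoli cells, against 1.96 and 5.09 in pre-granulosa cells.

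The kinesins, motors of which only some work in mitosis, had 42 Sertoli and 24 pre-granulosa calls, and 68 and 40 with extended baits. The ratios were 1.75 and 1.70, against 1.93 and 1.41 over all baits. Kif28 had the busiest original bait, with 10 and 5. Kif2c, which depolymerises microtubules at the kinetochore, had contacts inside its own gene. Those of Kif2c-202 were called in both cell types at 6.81 to 9.64 in Sertoli and 5.25 to 7.03 in pre-granulosa cells, and those of Kif2c-201 in pre-granulosa cells alone at 5.24 and 5.17 against 2.28 and 3.27. Kif22 met the bin of the Aldoa and Fam57b promoters 242 kb away at 7.40 in pre-granulosa cells, against 0 in Sertoli cells, but all 27 contacts listed for that bin were at 0 there.

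The DNA repair genes, the family with the most baits, had 74 Sertoli and 30 pre-granulosa calls at 16 baits. The ratio was 2.47, against 1.93 over all baits, and the kinetochore genes (3.67) and mitotic kinases (3.00) had higher ratios from fewer calls. The baits of Rad9b and Fanca held 30 and 17 of the Sertoli calls, and 10 and 4 of the pre-granulosa calls. The other 12 baits had 27 and 16 calls, a ratio of 1.69. Rad9b and Fanca were set apart after the values were seen, and taking out genes with high ratios lowers that of the rest. No like value over all baits was computed. With extended baits the family had 122 and 70 calls, a ratio of 1.74, against 1.41 over all baits. Without Rad9b and Fanca it had 70 and 46, a ratio of 1.52.

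Fanca encodes a subunit of the Fanconi anaemia core complex, which acts on DNA crosslinks. Fanca-204 (chr8:123313356-123313739) had 15 Sertoli and 4 pre-granulosa calls, spread on both sides from 69.3 kb toward lower to 56.9 kb toward higher coordinates over Vps9d1, Fanca, Spire2 and Tcf25. The nearest bins inside Fanca, at 7.15, 12.5 and 18.1 kb, scored 18.5, 12.1 and 16.2 in Sertoli cells, against 10.01, 7.53 and 2.49 in pre-granulosa cells. Of the 15 bins, 11 were listed through Sertoli cells alone, which fixes their direction, and the 4 called in both scored higher in Sertoli cells as well. With the extended bait the counts were 16 and 4, and the contact between Fanca-204 and Fanca-214, 42.9 kb apart in the gene, scored 7.90 in Sertoli and 1.47 in pre-granulosa cells from one side, and 11.1 and 2.65 from the other. The bin of Fanca-201, which holds the RefSeq start, had 2 calls in Sertoli and 1 in pre-granulosa cells.

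Rad9b encodes a paralogue of Rad9 in the checkpoint clamp loaded at damaged DNA. Rad9b-204 (chr5:122351029-122351696) had 22 Sertoli and 9 pre-granulosa calls, 8 of them shared, reaching 243 kb toward lower coordinates over Pptc7, Tctn1 and Ccdc63. The bins 78.4 and 222 kb away scored 19.0 and 13.9 in Sertoli cells, against 12.4 and 14.2 in pre-granulosa cells. The bins over Pptc7 between 30.7 and 63.7 kb scored 5.19 to 10.2 in Sertoli cells and 2.62 to 5.27 in pre-granulosa cells. Rad9b-203, a neighbouring bait, met the same bin over Ccdc63 at 9.28 in Sertoli cells, with 0 listed for pre-granulosa cells. The bait next to it gave 14.2 for that bin, and the extended bait, which also carries Vps29, gave 17.1 in pre-granulosa and 20.9 in Sertoli cells. That extended bait had 29 Sertoli and 19 pre-granulosa calls, 18 of them shared, so the ratio of calls for Rad9b was 1.53, against 3 with original baits.

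Fancd2 and Fanci encode the pair of proteins that the Fanconi core complex ubiquitinates. Fanci-205 had 7 Sertoli and 2 pre-granulosa calls, running through its own gene into Polg from 15.8 to 58.2 kb, with the highest at 43.5 kb, 16.2 in Sertoli and 7.89 in pre-granulosa cells. Its extended bait met the Polg promoter bin at 26.4 and 8.70. For Fancd2-203 the calls numbered 4 in Sertoli and 1 in pre-granulosa cells. Brca2, a gene of homologous recombination, leaned the other way through an extended bait shared with Zar1l, with 1 Sertoli and 3 pre-granulosa calls. Its contact with the N4bp2l2 promoter bin 144 kb away scored 6.87 in pre-granulosa and 0.60 in Sertoli cells.

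The excision repair genes had shared contacts and also contacts called in either cell type alone. Ercc1, a subunit of the nuclease that cuts beside bulky lesions, had an extended bait at its start with 15 Sertoli and 7 pre-granulosa calls. An original bait of Ercc1 leaned the other way, with no Sertoli call and 2 pre-granulosa calls, at 5.73 over Opa3 and 5.29 over Cd3eap and Ercc1, against 2.86 and 3.59 in Sertoli cells. The extended bait at the start met the Fosb promoter bin 32.5 kb away at 21.4 in Sertoli and 5.85 in pre-granulosa cells. Another Ercc1 bait met the bin of Cd3eap and Ppp1r13l 10.3 kb away at 39.5 and 33.2. Ercc2, a helicase of the TFIIH complex whose gene lies next to these, met that same bin at 19.7 in Sertoli and 22.8 in pre-granulosa cells. Xrcc1 encodes a scaffold of single-strand break repair. Its original bait Xrcc1-205 met bins over Irgq 11.8 and 6.46 kb away at 9.86 and 8.80 in pre-granulosa cells, against 4.30 and 8.25 in Sertoli cells. With extended baits Xrcc1-205 had 2 Sertoli and 3 pre-granulosa calls and its other bait 2 and 1, so the gene as a whole had equal numbers.

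The contacts with the largest differences between the cell types came from many families. Choosing them by difference favours a low score on one side. Toward pre-granulosa cells with original baits, Mcm8, a helicase of recombination, met a bin 291 kb away at 7.09, against 0 in Sertoli cells. Kif1b-207 met a bin over Ube4b 156 kb away at 6.21 against 0.33. Rad21l-202, of a cohesin subunit gene of meiosis, met a bin over Snph 37.7 kb away at 6.04 against 0.76, and the extended bait gave 5.02 and 1.43. Cdc42bpa-209 met a bin 145 kb away in its own gene at 7.16 in pre-granulosa and 1.01 in Sertoli cells, but the extended bait gave 6.999 and 6.40.

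Toward Sertoli cells, Cdc42bpa-209 met a bin 243 kb away at 8.60, Cenpf-204 a bin 187 kb away at 6.76, and Bub3-203, of a spindle checkpoint gene, a bin over Acadsb 129 kb away at 6.57, each with 0 listed for pre-granulosa cells. The extended baits gave 6.19 in pre-granulosa cells for the first of these and 1.11 for the Bub3 contact. With extended baits, Anapc2 met a bin 121 kb away at 7.49 and Orc6 a bin 116 kb away at 6.66, both listed at 0 in pre-granulosa cells, and Rad9b met a bin 212 kb away at 9.39 against 0.30.

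Cdc42se1 and Cdc42ep5 encode small effectors of Cdc42. One Cdc42se1 bait met a Mindy1 promoter bin 63.5 kb away at 11.6 in Sertoli and 0.49 in pre-granulosa cells, while Cdc42se1-203, the next bait, met the same bin at 7.14 and 5.46. Cdc42se1-203 met the Bnipl promoter bin 21.9 kb away at 41.3 and 33.1, among the strongest contacts of both cell types. The extended bait of Cdc42ep5 had 1 Sertoli and 4 pre-granulosa calls. Its farthest, over the Mboat7 and Tsen34 promoters 471 kb away, scored 6.59 in pre-granulosa cells and was listed at 0 in Sertoli cells, where 2 of the 11 contacts of that bin from any bait were at 0. The extended bait Cdc14a-208 met an Extl2 promoter bin 417 kb away at 5.48 in pre-granulosa and 3.57 in Sertoli cells.

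Contacts between promoters of the genes described here were listed with extended baits only. There were 32 such contacts of 20 pairs of bins, 17 pairs within one gene and 3 between genes, and 12 pairs were listed from both ends. The pairs between genes were Cdkn2a with Cdkn2b, Fancd2os with Fancd2, its neighbour on the other strand, and Cdk10 with Fanca. Cdk10 met the Fanca-204 bin 85.5 kb away at 6.61 in Sertoli and 2.51 in pre-granulosa cells, and Fancd2os met the Fancd2-203 bin at 8.33 and 5.42. Promoter bins of any gene made up 53.1% of the Sertoli calls (48.8 to 57.4), and for pre-granulosa cells 57.6% (52.5 to 62.5), against 55.2% and 61.0% over all extended baits. Of the 333 contacts with a promoter bin, 219 (65.8%) were listed again from the other end, against 68.2% over all baits.

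**Figure D4:**
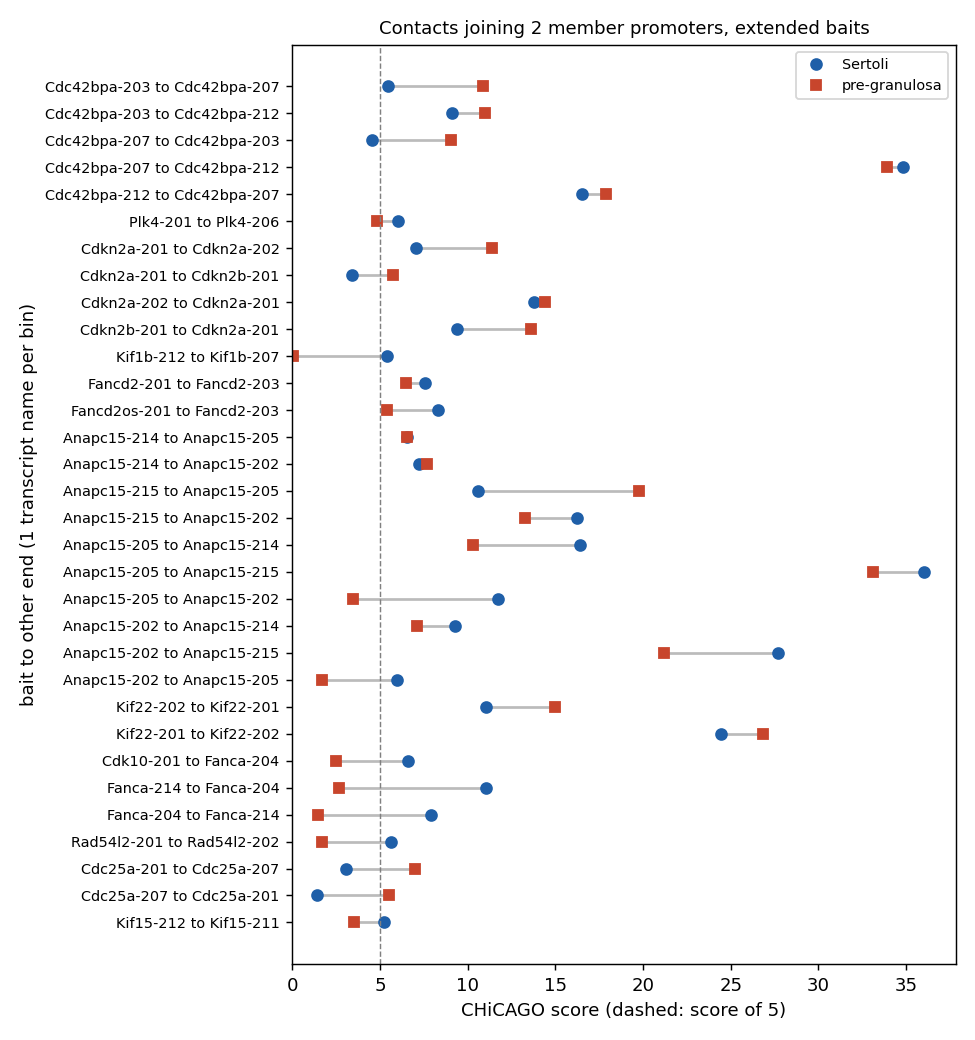
CHiCAGO scores in Sertoli cells (blue circles) and pre-granulosa cells (red squares) of the 32 contacts that join promoters of cell cycle and DNA repair genes, with the bait named first. Both views of Fanca-204 with Fanca-214 lie above 5 in Sertoli cells alone, and both views of Cdc25a-201 with Cdc25a-207 lie above 5 in pre-granulosa cells alone.

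Called contacts lay at a median of 48.4 kb for Sertoli cells (41.1 to 58.4) with original baits, against 42.6 kb over all baits. For pre-granulosa cells the median was 29.0 kb (19.8 to 45.5), against 26.0 kb. Contacts at 200 to 500 kb made up 12.7% of Sertoli calls (9.30 to 17.2), and for pre-granulosa cells 9.88% (6.17 to 15.4), against 6.72% and 4.79%. Of the 44 listed contacts in that range, 13 came from Cdk15-202, and 16 baits had at least 1. Without Cdk15-202, left out after the values were seen, the shares were 9.27% (6.31 to 13.4) and 7.28% (4.12 to 12.6), and both intervals then include the share over all baits. With extended baits the medians were 49.6 and 41.9 kb, against 47.9 and 37.9 kb, and the far shares 9.69% and 9.07%, against 5.81% and 5.19%. Without Cdk15-202 these shares were 7.60% (5.59 to 10.3) and 7.44% (5.16 to 10.6).

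**Figure D5:**
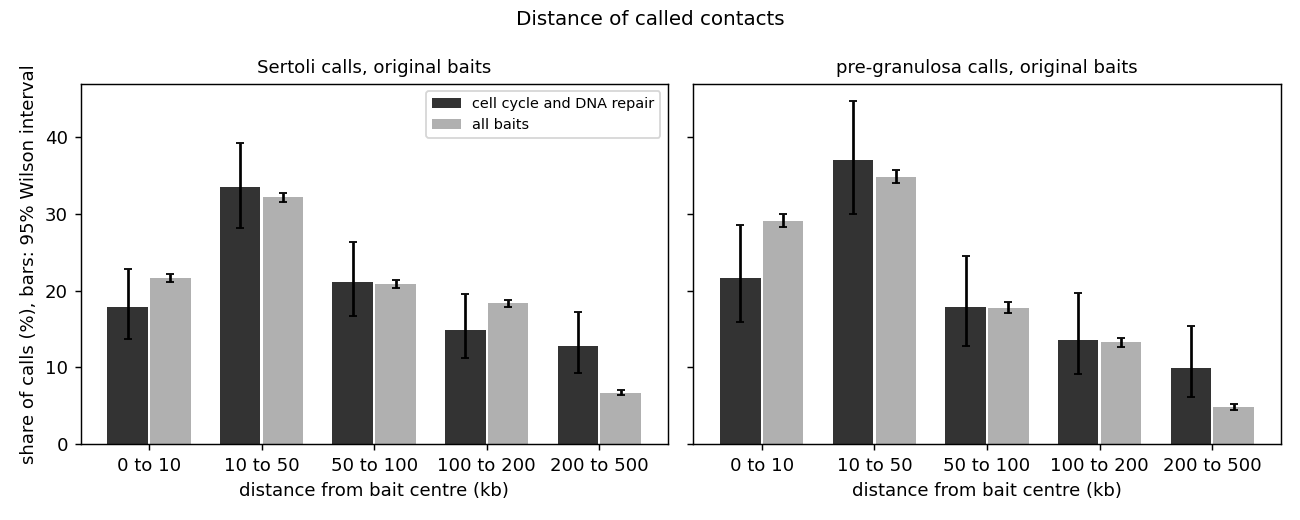
Share of called contacts in each distance class for cell cycle and DNA repair promoters (dark) and all baits (grey) with original baits, with 95% Wilson intervals that cover counting error only. The 200 to 500 kb class holds 12.7% of the Sertoli calls of these promoters against 6.72% of all Sertoli calls, and 13 of its 44 listed contacts belong to Cdk15-202.

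By RefSeq position, 74 of the 275 Sertoli calls with original baits (26.9%, 22.0 to 32.4) fell inside the gene of the bait, against 30.7% over all baits. Of the pre-granulosa calls 57 of 162 (35.2%, 28.3 to 42.8) did, against 35.5%. Bins outside protein-coding genes held 19.3% of the Sertoli calls (15.0 to 24.3), and for pre-granulosa cells 19.8% (14.4 to 26.6), against 26.6% and 28.7%. Of the shared contacts, 41.2% (31.1 to 52.2) lay inside the gene of the bait and 13.8% (7.85 to 23.0) outside protein-coding genes, against 40.6% and 26.1% over all baits. Fanca, Fanci, Kif2c and Mcm8 are among the genes with called bins in their own body, whereas the called bins of Ccnd2-206 all lay outside protein-coding genes.

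A further list of 57 genes of the same pathways, such as checkpoint kinases, replication factors and DREAM subunits, was read in the same way. With original baits, 21 of them had 26 baits, of which 14 had more Sertoli calls, 7 more pre-granulosa calls and 5 equal numbers, with 50 and 37 calls. More Sertoli calls were thus seen at 53.8% of these baits, against 65.2% of all baits, and the ratio of calls was 1.35, against 1.93. With extended baits, 36 genes had 52 baits, split 21, 17 and 14, with 134 and 109 calls. The share was then 40.4%, against 53.6%, and the ratio 1.23, against 1.41. These shares and ratios rest on few baits, and no interval was computed for them. Of the 57 genes, 2 were picked after their values were seen. Mybl2, a MuvB partner, had an extended bait whose single contact scored 34.9 in Sertoli and 17.5 in pre-granulosa cells. Chek1, a checkpoint kinase, had 2 pre-granulosa calls and no Sertoli call.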

How the data were processed

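Capture Hi-C contacts of sorted Sertoli cells (3 libraries) and pre-granulosa cells (2 libraries) were read from the authors' deposited tables of interactions, which give a CHiCAGO score per contact and cell type. The genome build is mm10, per the submitters' processing notes. The aligner, read filters, the version of the caller, and how libraries were combined are not given in the sources used here. Members were sought on chromosomes 1 to 9, and other autosomes were not analysed here.

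Members were found by gene symbol in the bait names. Cis contacts were counted at a score of at least 5 with pandas 2.3.3 and numpy 2.4.6 in Python 3.11.15. Distances run between midpoints. Shares have 95% Wilson intervals, and medians have order-statistic intervals from scipy 1.17.1. The ratio of calls has the Wilson interval of the Sertoli share of both counts. Bins were placed against RefSeq genes of GRCm38.p6. Counting steps were tested on simulated data.

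Genes are named by a rule: a list of key regulators, the 5 baits with most calls and with the largest excess in each cell type, the 5 contacts with the largest difference of asinh scores in each direction, the 5 strongest shared and the 5 farthest, contacts joining members, and the busiest bait of each family. Other genes named were chosen after their values were seen. The members and lists were chosen with earlier results of these data known. Alternatives were the extended baits, thresholds of 7 and 10, distances of at least 50 kb, equal numbers of calls, other definitions of sharing, merged bins, contacts at 0 left out, and single baits or relatives left out. The values of some single contacts are not reported here, and counts include them.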

Additional observations from a re-analysis of the deposited data

How the results depend on the processing

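Sertoli calls for each pre-granulosa call, 1.70 with original baits, were 1.38 with extended baits, 2.20 at a threshold of 7 and 2.19 at 10. It stayed inside its interval at distances of at least 50 kb, with merged bins, without contacts at 0, and without Cdk15-202 or Rad9b-204. Keeping only baits that carry member names alone could not change it, since every original bait passed. With equal numbers of calls in the whole table it was 0.994, which that setting brings close to 1 by construction.

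The shared part of Sertoli calls, 29.1%, became 48.4% with extended baits, 20.1% at 50 kb or more, 37.9% with equal numbers of calls, 38.1% and 65.6% when specific contacts needed another score under 3 or under 1, and 44.0% when touching bins counted. The shared part of pre-granulosa calls, 49.4%, became 66.7%, 40.3%, 37.7%, 69.0%, 95.2% and 62.3% under the same settings, and 57.6% at a threshold of 7.

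The median Sertoli distance was 39.7 kb at a threshold of 10 and 114 kb among contacts of at least 50 kb. The pre-granulosa median was 15.8 kb at 7, 8.65 kb at 10 and 106 kb among contacts of at least 50 kb. Sertoli calls listed at 0 in pre-granulosa cells were 6.18% (5.23% over all baits), and 1.55% with extended baits (3.02%). Pre-granulosa calls listed at 0 in Sertoli cells were 0.617% (0.682%), and 1.60% with extended baits (1.63%), so the 2 cell types then had nearly equal shares. Promoter ends went from 0.727% to 53.1% of Sertoli calls and from 0 to 57.6% of pre-granulosa calls with extended baits, whose bins carry the promoter names.

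Baits with more Sertoli calls, 67.1%, were 54.1% with extended baits, 55.0% at a threshold of 10 and 37.7% with equal numbers of calls, where 49.3% had more pre-granulosa calls. Families with more Sertoli calls numbered 9, and 3 with equal numbers of calls. Family ratios that crossed 1 were the CDK inhibitors (0.857 to 1.30) and cyclins (2.00 to 0.864) with extended baits, the cyclin-dependent kinases (0.944), Cdc genes (0.474), licensing genes (0.571), anaphase-promoting complex (0.938) and kinesins (0.875) with equal numbers of calls, and the Cdc genes (0.50) without Cdc42 and its relatives. Outside their interval without crossing 1 were the cyclin-dependent kinases at thresholds of 7 (4.33) and 10 (3.5). The kinesins at distances of at least 50 kb (2.875) were as well. With equal numbers DNA repair had 1.77, and 1.06 without Rad9b and Fanca, which is also outside its interval, and the CDK inhibitors 0.429. The cause was not tested.

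Of 20 named contacts, 17 had a value with extended baits and 16 kept their direction. The exception, the bin 222 kb from Rad9b-204, went from -0.02 to 0.20 in asinh score. The difference in asinh score shrank for Rad9b-203 (2.92 to 0.20), for Cdk14-203 (-2.32 to -0.22) and for Cdc42bpa-209 at 243 kb (2.85 to 0.65) and 145 kb (-1.78 to -0.09).

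No paired analysis was possible because the libraries of a cell type are merged into 1 score column, and no library was left out for the same reason. The settings without Cdk15-202 or Rad9b-204, and the splits of the repair genes, were chosen after seeing the data. Depth limits what a low score can show: a score under 5 does not show that a contact is absent, and the depth of either cell type is unknown.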

Other observations

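The tables also list contacts between chromosomes. Over all original baits, Sertoli cells called 35 of these and pre-granulosa cells 235, the reverse of the order within chromosomes. Baits named for the families described here had 3, all called in pre-granulosa cells and at 0 in the Sertoli column. Cdkn2a-201 met a bin of chromosome 16 at 5.75, Cdk6 a bin of chromosome 6 at 6.29, and Cdc7, a kinase that starts replication and whose baits had no listed contact within their chromosome, a bin of chromosome 8 at 5.74. From the extended baits the same bins scored 5.80, 6.23 and 5.49.

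Of the Sertoli calls of these promoters with original baits, 17 were listed at 0 for pre-granulosa cells (6.18%, against 5.23% over all baits). Of the pre-granulosa calls, 1 was at 0 for Sertoli cells (0.617%, against 0.682%), the contact of Mcm8 at 7.09. With extended baits the numbers were 8 and 6 (1.55% and 1.60%), which are nearly equal shares. Whether a listed 0 is a measured score or a contact without a usable value was not tested.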
